A study of Homo sapiens with 6 samples.

Results

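LMO1 codes for a LIM-only protein, which does not bind DNA itself. It joins DNA-binding factors, among them E-box and GATA binding proteins, into complexes through the adaptor LDB1. In the sympathetic lineage, from which neuroblastoma arises, GATA3, HAND2 and related adrenergic factors keep up the catecholamine program, and LMO1 is known as a neuroblastoma oncogene.

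The comparison set BE2C cells with forced LMO1 against every other BE2C library of the series. BE2C is an established human neuroblastoma line with amplified MYCN. It used 5 of the 6 RNA sequencing libraries: 2 labelled as overexpressing LMO1, 2 carrying the control vector, and 1 of parental BE2C cells with neither construct. The remaining library, from another neuroblastoma line, did not enter. Of 25370 rows in the count table, 11427 genes had at least 5 CPM (counts scaled to library size) in 2 of the 5 columns, after 55 histone (HIST) genes and 96 small structured RNA genes that met this level were left out. The promoter of the construct, and whether the modified cells were a clone or a pool, are not given in the sources used here. Whether the 2 libraries of a pair were grown apart is not stated, and the p-values cover no more than library-to-library spread, possibly technical.

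Each kept gene was placed by the order of its 5 values. In 4013 genes both LMO1 libraries lay beyond all 3 controls on the same side ("LMO1 pair apart"). In 3623 genes the LMO1 and vector pairs did not overlap, but parental lay level with or past the nearer LMO1 library ("vector pair apart"). In 3791 genes the pairs overlapped. All values below are CPM after TMM scaling, a correction for library composition, unless another quantity is named.

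The sequences upstream of 5 genes are shown because these genes carry the patterns described further on: FOS, FOSB and DBH were high with LMO1 against both kinds of control, FN1 was low against both, and PGK1, a glycolytic enzyme, lay at the border between the placements. Each is the 250 bases before the annotated start, 5′ to 3′, from RefSeq on GRCh38.p14. Capitals in the first 4 mark TGACGT or its reverse complement ACGTCA, the core of the cAMP response element bound by CREB and ATF proteins.
FOS, chr14:75278578-75278827, plus strand: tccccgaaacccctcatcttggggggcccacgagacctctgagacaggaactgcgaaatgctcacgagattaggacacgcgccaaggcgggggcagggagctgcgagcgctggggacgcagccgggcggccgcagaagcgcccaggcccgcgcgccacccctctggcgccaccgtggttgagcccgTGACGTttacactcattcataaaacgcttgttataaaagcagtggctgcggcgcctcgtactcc
FOSB, chr19:45467746-45467995, plus strand: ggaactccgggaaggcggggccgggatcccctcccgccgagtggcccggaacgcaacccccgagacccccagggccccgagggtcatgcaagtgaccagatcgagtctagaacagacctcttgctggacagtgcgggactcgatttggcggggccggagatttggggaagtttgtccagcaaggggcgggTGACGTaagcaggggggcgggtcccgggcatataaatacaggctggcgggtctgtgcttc
DBH, chr9:133636113-133636362, plus strand: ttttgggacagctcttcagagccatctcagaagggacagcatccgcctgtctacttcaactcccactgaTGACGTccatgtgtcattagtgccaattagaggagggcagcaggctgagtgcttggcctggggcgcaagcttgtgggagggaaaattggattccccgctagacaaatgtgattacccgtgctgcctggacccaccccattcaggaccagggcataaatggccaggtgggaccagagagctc
FN1, chr2:215436069-215436318, minus strand: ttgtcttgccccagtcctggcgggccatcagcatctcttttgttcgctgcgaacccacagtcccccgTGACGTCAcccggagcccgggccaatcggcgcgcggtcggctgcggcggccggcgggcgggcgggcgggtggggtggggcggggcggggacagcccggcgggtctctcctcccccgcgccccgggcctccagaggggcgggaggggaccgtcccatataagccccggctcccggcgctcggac
In the PGK1 sequence, capitals mark ACGTG or its reverse complement CACGT, the core recognised by hypoxia-inducible factors.
PGK1, chrX:78103998-78104247, plus strand: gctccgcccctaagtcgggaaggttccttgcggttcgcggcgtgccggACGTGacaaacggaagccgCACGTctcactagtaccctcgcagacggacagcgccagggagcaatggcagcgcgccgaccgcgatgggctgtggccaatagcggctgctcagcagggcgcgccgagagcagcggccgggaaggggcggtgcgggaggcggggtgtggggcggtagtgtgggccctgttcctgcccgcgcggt

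The cAMP core began 64 bases before the start in FOS, 60 bases in FOSB and 181 bases in DBH. In FN1 the matches on both strands overlapped, at 183 and 181 bases. These motifs were chosen after the sequences had been seen. A match describes the letters and shows no binding. Of the kept symbols, 8696 were found in the promoter table, with 12842 promoters. The cAMP core occurred in 9.61% of these, in 9.54% of promoters of genes with the LMO1 pair apart and higher, and in 8.56% of those apart and lower. It was in 7 of 22 promoters (31.8%) of the catecholamine and granule genes and in 6 of 26 (23.1%) of the immediate early genes. It was also in 17 of 76 (22.4%) promoters of ribosomal protein genes, most of which fell against vector. These are shares of promoters, not of genes: the 22 came from 16 genes, the 26 from 20 and the 76 from 61. Kept members without a promoter in the table are not covered. The E-box CANNTG, which reads the same on both strands and can overlap ACGTG, was in 53.3% of kept promoters, 54.1% of the apart and higher and 52.4% of the apart and lower. GATA or TATC was in 34.6%, 33.6% and 33.5% of the same 3 sets.

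The parental library stood apart from the other 4 in composition. Total counts ran from 18737591 to 25070942 in the modified libraries and reached 48663459 in parental. HIST genes took 1.01% to 1.23% of counts in the modified libraries and 0.0423% in parental. Small structured RNA genes took 3.5% to 3.89% and 0.0565%. Among genes still kept, the telomerase RNA TERC had 103 and 102 CPM in the LMO1 libraries against 80.3 and 78.4 CPM in the vector libraries and 0.193 CPM in parental. PLCG2, a phospholipase gene, had 6006 and 5741 CPM with LMO1, 4966 and 5135 CPM with vector, and 1.5 CPM in the parental library. KMT2D, a histone methyltransferase gene, was shifted the other way, with 53.3 and 50.6 CPM with LMO1, 69.5 and 67.9 CPM with vector and 489 CPM in parental. These 3 were singled out after their values were seen. Parental lay outside all 4 modified libraries in 8739 kept genes (76.5%), above in 4439 and below in 4300. The median absolute log2 difference was 0.0727 within the LMO1 pair, 0.0656 within the vector pair, 0.129 between the 2 pairs, 0.303 between LMO1 and parental and 0.323 between vector and parental. Absence of any construct and a differently composed library are 1 and the same contrast here and cannot be told apart.

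Marker genes matched the cell label. All 14 neuroblastoma identity markers were kept, with a summed level of 8629 to 9651 CPM. The sums here are of counts over the column total, without TMM scaling. Of 18 fibroblast and endothelial markers, 7 were under 1 CPM in every library and the sum was 268 to 381 CPM, with the highest sum in parental. Of 14 Schwann and melanocytic markers, 9 were under 1 CPM everywhere (sum 18.6 to 22.7 CPM). Of 15 haematopoietic markers, 13 were (sum 9.23 to 11.1 CPM).

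LMO1 itself had 6.97 and 6.22 CPM in the LMO1 libraries against 1.1 and 0.966 CPM in the vector libraries and 1.97 CPM in parental. Both LMO1 libraries were above all 3 controls, and parental was above both vector libraries. The counts behind these values were 125 and 133, 23 and 23, and 92, which for parental gives a 95% exact Poisson interval of 1.59 to 2.42 CPM (counting error only). Against the 3 controls the log2 difference was 2.25 (SE 0.348, edgeR adjusted p = 0.194). Against vector alone it was 2.67 (SE 0.265, edgeR adjusted p = 2.57e-14). LMO1 is the forced gene by which the groups are labelled. It also passed the 5 CPM filter through the LMO1 columns alone. Its place above the controls follows from that filter and is no independent result. MYCN, the amplified driver of this line, had 1742 and 1657 CPM with LMO1, 1729 and 1739 CPM with vector, and 1649 CPM in the parental library, and its pairs overlapped.

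With the 3 controls fitted as 1 group, edgeR's quasi-likelihood test called no gene at an adjusted p below 0.05 (0% of 11427). The smallest adjusted p was 0.0861, shared by ARHGAP36 and AQP1. At an unadjusted p below 0.05 there were 649 genes higher (5.68%) and 370 lower (3.24%), all with the LMO1 pair apart. On the same samples limma-voom also called 0 genes, and DESeq2 called 234 higher and 98 lower. The estimated coefficient of variation between libraries of a group was 21.7% with parental among the controls and 3.36% without it. Without parental, the count of calls was 2171 higher (19.0%) and 1999 lower (17.5%), so the count rests on this 1 library. Here rose and fell refer only to this 4-library test against vector, at an edgeR adjusted p below 0.05.

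The placement gave 2058 genes with the LMO1 pair apart and higher (18.0%) and 1955 apart and lower (17.1%). With the vector pair apart, LMO1 was higher in 1808 (15.8%) and lower in 1815 (15.9%). Of the 4170 genes that rose or fell against vector, 2285 (54.8%) had the LMO1 pair apart and 1875 (45%) had the vector pair apart. Among the 293 with a change of at least 2-fold, 184 that rose and 24 that fell had the LMO1 pair apart (71%), and 75 that rose and 10 that fell had the vector pair apart (29%). A 2-fold distance from both vector and parental was met by 42 genes that rose and 10 that fell. Since both sides of each count share the LMO1 and vector values, these are descriptions. The border is thin: PGK1, just inside the LMO1 side, had 1013 and 1050 CPM with LMO1, 757 and 756 CPM with vector and 1009 CPM in parental, and RPS21, just outside, had 491 and 481 CPM in the LMO1 libraries against 509 and 516 CPM in the vector libraries and 489.5 CPM in parental. At the expression filter, COL27A1 was just inside with a second-highest column of 5.04 CPM and PSMB8 just outside with 4.99 CPM, both before TMM scaling. The 116 genes that passed this filter through the LMO1 columns alone, LMO1 among them, all had the LMO1 pair apart by that choice. Of these, 100 were called against vector and are within the counts above of genes with the LMO1 pair apart. How many of them reached 2-fold was not counted. Another 27 genes passed through the vector columns alone: 17 were called against vector, and 8 had the LMO1 pair apart.

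**Figure D1:**
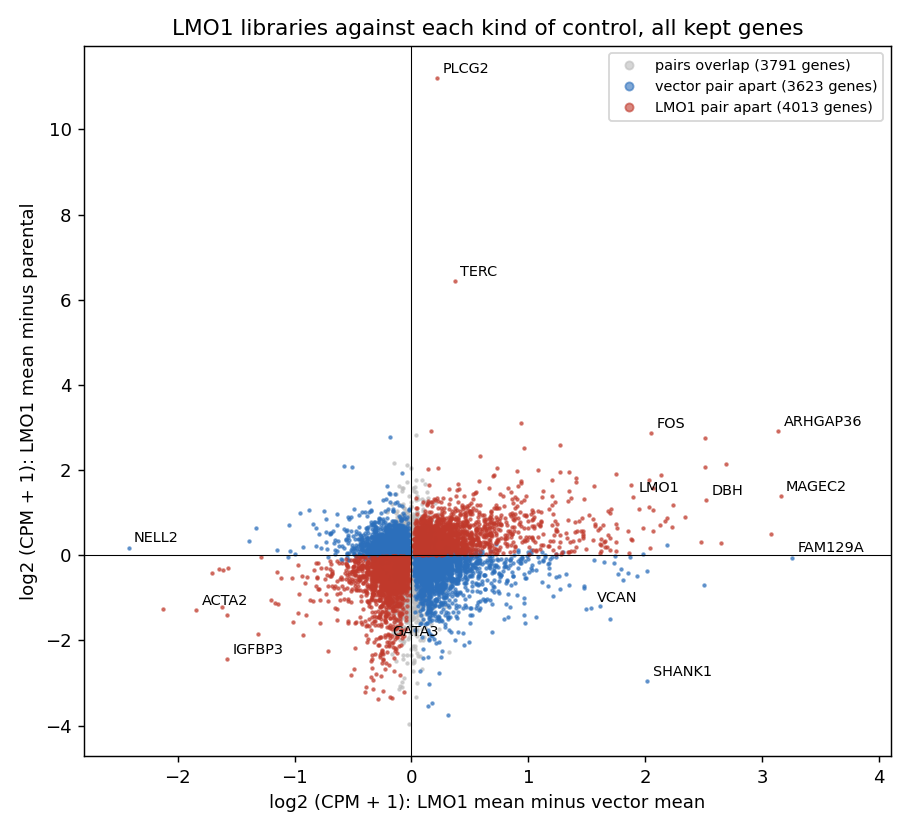
Each point is a kept gene. The horizontal axis is the log2 (CPM + 1) difference between the LMO1 mean and the vector mean, and the vertical axis the difference between the LMO1 mean and parental. Colours give the 3 placements: 4013 genes with the LMO1 pair apart (red), 3623 with the vector pair apart (blue) and 3791 with overlapping pairs (grey). Both axes share the LMO1 libraries. FAM129A and SHANK1 lie far to the right but level with or below parental, while ARHGAP36 and FOS are high on both axes.

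From genes called against vector with the LMO1 pair apart, the 12 highest and 12 lowest by distance from both kinds of control were picked. This rule was added after the data were seen. Their place beyond all controls follows from the choice, as it does for list members named below for this placement. Among the 12 highest were the AP-1 subunits FOS and FOSB. FOS had 41.3 and 40.7 CPM with LMO1, 8.98 and 9.28 CPM with vector, and 4.75 CPM in the parental library, so parental was lowest and the LMO1 pair lay above every control. Its log2 difference from the 3 controls was 2.43 (SE 0.314, edgeR adjusted p = 0.141). FOSB had 8.98 and 11.3 CPM with LMO1, 1.58 and 0.336 CPM with vector and 0.642 CPM in parental, with the LMO1 pair above all controls. FOSB passed the expression filter through the LMO1 columns alone. Of 23 kept immediate early genes, FOS and FOSB included, 7 rose and 7 fell against vector (30.4% each, against 19.0% and 17.5% of all kept genes). The LMO1 pair was apart and higher in 7 (30.4%, against 18.0%), and the list median was 0.03 log2 against both vector and parental (all kept genes: 0 and 0.01). DUSP6, like FOSB, passed the filter through the LMO1 columns alone, so both are among the 7 by that choice. EGR1, another immediate early factor, had 14.4 and 13.9 CPM in the LMO1 libraries against 15 and 12.6 CPM in the vector libraries and 26.2 CPM in parental and its pairs overlapped.

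ARHGAP36, known as an inhibitor of protein kinase A, had 13 and 14.8 CPM with LMO1, 0.624 and 0.756 CPM with vector, and 0.985 CPM in the parental library. Every control was under 1 CPM. The log2 difference from the 3 controls was 4.1 (SE 0.241, edgeR adjusted p = 0.0861). SOX11, an adrenergic transcription factor, had 13.6 and 11.1 CPM with LMO1, 1.58 and 1.09 CPM with vector and 2.16 CPM in parental. KCNJ2, an inwardly rectifying potassium channel, had 9.93 and 6.32 CPM in the LMO1 libraries against 0.288 and 0.546 CPM in the vector libraries and 1.07 CPM in parental. In all 3 the LMO1 pair was several-fold above the highest control, which was parental.

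The other genes of the 12 have diverse roles. AQP1, a water channel, had 78.8 and 86.1 CPM with LMO1, 25.9 and 28.6 CPM with vector, and 26.2 CPM in the parental library, and its log2 difference from the 3 controls was 1.62 (SE 0.0996, edgeR adjusted p = 0.0861). PI15, a secreted peptidase inhibitor, had 53.9 and 49.4 CPM with LMO1, 12.5 and 11.3 CPM with vector and 14.4 CPM in parental. PKHD1, the fibrocystin gene of the primary cilium, had 85 and 78.7 CPM in the LMO1 libraries against 30.2 and 30.3 CPM in the vector libraries and 22.6 CPM in parental. COL21A1 (a collagen), CYSLTR2 (a leukotriene receptor), TAP1 (the peptide transporter of antigen presentation) and MCTP2 (a calcium-binding membrane protein) completed the 12. Their LMO1 values ran from 6.46 to 13.2 CPM and their control values from 0.756 to 3.36 CPM. As the selection requires, in all 12 the LMO1 pair lay above the highest control. Of the 12, FOS, PI15, AQP1 and PKHD1 passed the expression filter in control libraries too; the other 8 passed through the LMO1 columns alone and so had to be higher there.

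The 12 lowest included contractile and matrix genes. ACTA2, smooth muscle actin, had 28.3 and 27.5 CPM with LMO1, 106 and 98.3 CPM with vector, and 69.8 CPM in the parental library. TAGLN, the actin-binding transgelin, had 5.97 and 5.38 CPM with LMO1, 18.1 and 19.7 CPM with vector and 16.7 CPM in parental. FN1, fibronectin, had 56.1 and 56 CPM in the LMO1 libraries against 128 and 133 CPM in the vector libraries and 117 CPM in parental. As the selection requires, in all 3 the LMO1 pair was below the lowest control. Their log2 differences from the 3 controls were -1.71 (SE 0.211) for ACTA2, -1.68 (SE 0.155) for TAGLN and -1.17 (SE 0.0968) for FN1, with edgeR adjusted p of 0.141, 0.116 and 0.116.

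The remaining low genes differ in role. IGFBP3, which binds insulin-like growth factors, had 21.1 and 24.1 CPM with LMO1, 71.2 and 67.8 CPM with vector, and 127 CPM in the parental library, and parental was the highest library. BMPER, a modulator of bone morphogenetic protein (BMP) signalling, had 1.84 and 0.795 CPM with LMO1, 10.2 and 8.07 CPM with vector and 4.56 CPM in parental; it passed the filter through the vector columns alone. SMAD6, an intracellular inhibitor of the BMP pathway, had 12.2 and 12.8 CPM in the LMO1 libraries against 30.6 and 26.9 CPM in the vector libraries and 28.8 CPM in parental, where the controls lay close together. CXCL12, a chemokine, had 11.1 and 9.55 CPM with LMO1, 20.7 and 22.8 CPM with vector, and 32.5 CPM in the parental library. Also low were SLC6A19 (an amino acid transporter), SCGN (a calcium sensor), PLXDC2 and CRTAC1 (a matrix protein). In these 4 the LMO1 values were 1.97 to 16.8 CPM and the control values 6.21 to 39.8 CPM.

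**Figure D2:**
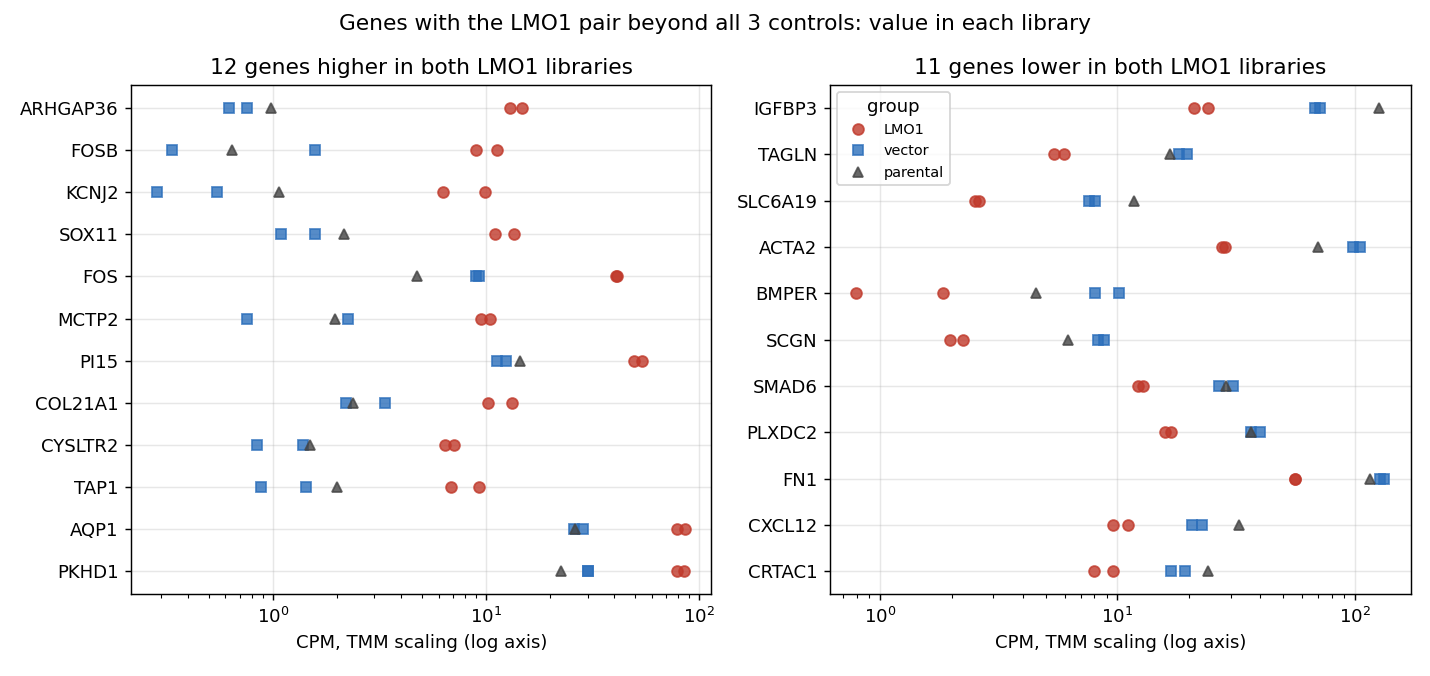
CPM after TMM scaling (log axis) in each library for the 12 highest and 11 of the 12 lowest genes with the LMO1 pair apart, ranked by the smaller of the log2 differences to vector and to parental. Circles are the 2 LMO1 libraries, squares the 2 vector libraries and triangles parental. By selection, the circles lie on one side of all other symbols in every row. FOS has circles at 41.3 and 40.7 CPM and its highest control at 9.28 CPM.

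Catecholamine and granule genes make, store and release noradrenaline and peptides. Of 24 kept members, 17 rose (70.8%, against 19.0% of all kept genes) and 2 fell (8.33%, against 17.5%). The LMO1 pair was apart and higher in 16 (66.7%, against 18.0%) and apart and lower in 0 (against 17.1%). These all-gene shares are the background for the lists that follow. The list median was 0.49 log2 above vector and 0.54 above parental (all kept genes: 0 and 0.01). DBH, which converts dopamine to noradrenaline, had 95.6 and 83.9 CPM with LMO1, 14 and 15.6 CPM with vector and 36.2 CPM in parental, so parental lay between the pairs. The log2 difference was 2.59 (SE 0.0793, edgeR adjusted p = 5.99e-45) against vector and 2.02 (SE 0.448, edgeR adjusted p = 0.301) against the 3 controls. TH, the rate-limiting enzyme, had 5.58 and 6.6 CPM in the LMO1 libraries against 1.78 and 1.6 CPM in the vector libraries and 3.15 CPM in parental. TH and MAOA passed the expression filter through the LMO1 columns alone, so their place above the controls follows from the filter, and they are among the 17 and the 16.

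Other members had controls that lay together. DDC, which makes dopamine, had 357 and 370.5 CPM with LMO1, 219 and 223 CPM with vector, and 231 CPM in the parental library. CHGB, a granule protein, had 2192 and 2157 CPM with LMO1, 1259 and 1288 CPM with vector and 1309 CPM in parental. For both, vector and parental differed far less than either did from LMO1. NPY, a peptide co-released with noradrenaline, had 101 and 104 CPM in the LMO1 libraries against 59.4 and 62.2 CPM in the vector libraries and 46.9 CPM in parental. MAOA, which breaks down amines, had 6.3 and 6.97 CPM with LMO1, 0.672 and 0.966 CPM with vector, and 2.65 CPM in the parental library, and CPE, a prohormone carboxypeptidase, had 30 and 28.5 CPM with LMO1, 6.67 and 6.18 CPM with vector and 12.8 CPM in parental. Not all members moved this way. The granins CHGA and SCG2 fell, with 4142 and 3942 CPM in the LMO1 libraries against 4429 and 4362 CPM in the vector libraries and 3735 CPM in parental for CHGA, which placed LMO1 between vector and parental. SCG3 was highest in parental, with 137 and 139 CPM with LMO1, 133 and 126 CPM with vector, and 298 CPM in the parental library.

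Adrenergic transcription factors did not move as one. Of 23 kept, 8 rose and 8 fell against vector (34.8% each, against 19.0% and 17.5% of all kept genes). The LMO1 pair was apart and higher in 6 (26.1%, against 18.0%) and apart and lower in 9 (39.1%, against 17.1%), and the medians were -0.03 log2 against vector and -0.09 against parental. Among the 6, SOX11 and INSM1 passed the filter through the LMO1 columns alone and so had to be higher there. TBX2 had 198 and 199.9 CPM with LMO1, 320.2 and 316 CPM with vector and 255 CPM in parental, below all controls. GATA3, a GATA factor of the sympathetic lineage, had 65.9 and 66 CPM in the LMO1 libraries against 76.7 and 76.4 CPM in the vector libraries and 273 CPM in parental: it fell by 0.22 log2 against vector, while parental was several times higher than all 4 modified libraries. ISL1, a LIM homeodomain factor that also binds LDB1, had 150.1 and 154 CPM with LMO1, 129 and 119.8 CPM with vector, and 74.3 CPM in the parental library. In these 3 the LMO1 pair was on one side of the controls, but the distance to vector was small for GATA3 and ISL1.

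Genes listed as LMO and LDB1 complex partners, ID proteins included, differed by -0.62 to 0.41 log2 from vector and by -2.03 to 0.86 from parental. Of 24 kept LMO and LDB1 complex partners, 2 rose (8.33%, against 19.0% of all kept genes) and 12 fell (50%, against 17.5%). With the LMO1 pair apart, 3 were higher (12.5%, against 18.0%) and 8 lower (33.3%, against 17.1%). With the vector pair apart, 1 was higher (4.17%, against 15.8%) and 9 lower (37.5%, against 15.9%). The median was -0.12 log2 against vector and 0.07 against parental. LDB1, the adaptor, had 144 and 143 CPM with LMO1, 145 and 146 CPM with vector and 141 CPM in parental. ID2, which blocks E-proteins from binding DNA, had 106 and 106 CPM in the LMO1 libraries against 141 and 142 CPM in the vector libraries and 130.4 CPM in parental. ID3, of the same family, had 79.6 and 83.9 CPM with LMO1, 127 and 126 CPM with vector, and 70.2 CPM in the parental library. ID2 was therefore below all controls, while ID3 was below vector only.

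Matrix-modifying enzymes and integrins, which remodel the matrix and attach cells to it, were also compared. Of 35 enzymes, 20 rose (57.1%, against 19.0% of all kept genes) and 4 fell (11.4%, against 17.5%). With the LMO1 pair apart, LMO1 was higher in 15 (42.9%, against 18.0%) and lower in 5 (14.3%, near 17.1%). Among the 15, HPSE passed the filter through the LMO1 columns alone. Medians were 0.2 log2 against vector and 0.11 against parental. SERPINE2, a secreted protease inhibitor, had 31.7 and 28.6 CPM with LMO1, 11.4 and 11 CPM with vector and 7.04 CPM in parental. MMP14, a membrane-bound collagenase, had 17.3 and 14.7 CPM in the LMO1 libraries against 6.82 and 8.65 CPM in the vector libraries and 10 CPM in parental. LOXL3, a lysyl oxidase, had 20.1 and 21 CPM with LMO1, 11.1 and 10.2 CPM with vector, and 13.5 CPM in the parental library. In all 3 the LMO1 pair was above every control. PLOD2, a collagen lysyl hydroxylase, had 19.1 and 19.9 CPM with LMO1, 4.85 and 3.95 CPM with vector and 27.8 CPM in parental, with parental the highest. Of 13 integrin subunits 7 rose (53.8%, against 19.0% of all kept genes) and 1 fell (7.69%, against 17.5%). In 8 the LMO1 pair was apart and higher (61.5%, against 18.0%). Of these 8, ITGA5 passed the filter through the LMO1 columns alone. The integrin medians were 0.35 log2 against vector and 0.31 against parental. ITGB5 had 176 and 181 CPM in the LMO1 libraries against 114 and 117 CPM in the vector libraries and 102 CPM in parental, and ITGA3 had 9.48 and 9.87 CPM with LMO1, 4.51 and 3.82 CPM with vector, and 5.87 CPM in the parental library. ITGB1, the shared beta subunit, had 558 and 564 CPM with LMO1, 528 and 547 CPM with vector and 554 CPM in parental and did not pass the test.

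Of 30 structural matrix genes, 12 rose (40%, against 19.0% of all kept genes) and 6 fell (20%, near 17.5%), and 33.3% had the LMO1 pair apart, near the 35.1% of all kept genes. Among those apart, SPOCK2 passed the filter through the LMO1 columns alone. The medians were 0.08 log2 against vector and -0.32 against parental. FBN1, fibrillin, had 33.3 and 30.3 CPM in the LMO1 libraries against 49.1 and 52.5 CPM in the vector libraries and 54.4 CPM in parental, below every control. The proteoglycan gene VCAN rose against vector, yet it had 135 and 120.2 CPM with LMO1, 43.7 and 42.7 CPM with vector, and 301 CPM in the parental library, with parental far above both pairs.

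Actomyosin and YAP target genes build stress fibres or are induced with them. Of 25 kept, 5 rose (20%, near the 19.0% of all kept genes) and 11 fell (44%, against 17.5%). With the LMO1 pair apart, LMO1 was lower in 11 (44%, against 17.1%) and higher in 4 (16%, near 18.0%). Medians were -0.04 log2 against vector and -0.28 against parental. Besides ACTA2 and TAGLN, VCL, which anchors actin at adhesions, had 124 and 118 CPM with LMO1, 178 and 180.2 CPM with vector and 179 CPM in parental. The receptor kinase gene AXL had 12.5 and 12.6 CPM in the LMO1 libraries against 19.8 and 22.4 CPM in the vector libraries and 21.2 CPM in parental. For both, vector and parental were close and the LMO1 pair lower. SRF, the factor that drives many actin genes, had 36 and 35.5 CPM with LMO1, 41.7 and 45.3 CPM with vector, and 56 CPM in the parental library. MYLK, the kinase of myosin light chain, was higher with LMO1, with 19.4 and 20.6 CPM with LMO1, 14.5 and 14.8 CPM with vector and 13.8 CPM in parental.

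Hypoxia and glycolysis genes differed by the kind of control. All 40 kept members rose against vector, by 0.09 to 2.04 log2, with a median of 0.49. Against parental the differences ran from -1.23 to 0.6 log2, with a median of -0.14. In 16 members the LMO1 pair was apart and higher (40%, against 18.0% of all kept genes), and in 24 the vector pair was apart and LMO1 higher (60%, against 15.8%). Parental was above all 4 modified libraries in 23 (all kept genes: 4439 of 11427). PFKP, a phosphofructokinase, had 284 and 283 CPM in the LMO1 libraries against 190.0 and 192 CPM in the vector libraries and 195 CPM in parental, with both kinds of control level. LDHA, which makes lactate, had 23.7 and 26.1 CPM with LMO1, 21.3 and 20.3 CPM with vector, and 16 CPM in the parental library, and ENO1, enolase, had 1567 and 1638 CPM with LMO1, 1254 and 1206 CPM with vector and 1159 CPM in parental. For these 3 the LMO1 pair was the highest.

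Other hypoxia genes had parental above or near the LMO1 pair. VEGFA, the angiogenic factor, had 446 and 422 CPM in the LMO1 libraries against 303 and 295 CPM in the vector libraries and 496 CPM in parental. SLC2A1, a glucose transporter, had 93.6 and 89.1 CPM with LMO1, 55.8 and 52.4 CPM with vector, and 110.3 CPM in the parental library. NDRG1, a stress-response gene, had 159.5 and 159.5 CPM with LMO1, 36 and 40.1 CPM with vector and 140.4 CPM in parental, so parental was below the LMO1 pair but far nearer to it than to the vector pair. The HIF core ACGTG was in 26 of 64 promoters (40.6%) from 35 genes of this list. Its share was 22.6% of all kept promoters and 18.5% of all promoters in the table. It was also in 8 of 22 (36.4%) of the catecholamine and granule promoters and 23 of 76 (30.3%) of the ribosomal protein promoters. It was in 12 of 34 (35.3%) promoters of the members with the LMO1 pair apart and 14 of 30 (46.7%) of those with the vector pair apart.

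Of 76 kept ribosomal protein genes, 0 rose (against 19.0% of all kept genes) and 66 fell against vector (86.8%, against 17.5%). The median was -0.19 log2. Against parental the median was 0.35. In 64 the vector pair was apart and LMO1 lower (84.2%, against 15.9%), and parental was below all 4 modified libraries in 65 (all kept genes: 4300 of 11427). RPS20 had 938 and 930.5 CPM in the LMO1 libraries against 1287 and 1301 CPM in the vector libraries and 662 CPM in parental, in the order vector, LMO1, parental. RPL3 had 1961 and 2068 CPM with LMO1, 2481 and 2446 CPM with vector, and 2134 CPM in the parental library and was among the 6 members with the LMO1 pair apart and lower. Reads of these genes can be shared with processed pseudogenes, so single members are uncertain. Of 24 cholesterol synthesis genes, 3 rose (12.5%, against 19.0%) and 15 fell (62.5%, against 17.5%) against vector. In 13 the vector pair was apart and LMO1 lower (54.2%, against 15.9%). The LMO1 pair was apart and higher in 4 and apart and lower in 4 (16.7% each, near the 18.0% and 17.1% of all kept genes). The list medians were -0.26 log2 against vector and 0.23 against parental. HMGCS1, which makes the precursor of mevalonate, had 162 and 161 CPM with LMO1, 235 and 243 CPM with vector and 205 CPM in parental, with the LMO1 pair lowest.

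Genes of ribosome assembly and other MYC targets were counted separately. Of 49, 2 rose (4.08%, against 19.0% of all kept genes) and 25 fell (51%, against 17.5%). In 16 the LMO1 pair was apart and lower (32.7%, against 17.1%) and the vector pair apart with LMO1 lower in 17 (34.7%, against 15.9%), and the medians were -0.13 log2 against vector and -0.02 against parental. NOP2, a nucleolar RNA methyltransferase, had 66.8 and 62 CPM in the LMO1 libraries against 90 and 87.1 CPM in the vector libraries and 92.9 CPM in parental, below all controls. NPM1, nucleophosmin, had 1833 and 1814 CPM with LMO1, 2226 and 2172 CPM with vector, and 1677 CPM in the parental library, below vector only. Of 50 mitosis genes, 7 rose (14%, against 19.0%) and 9 fell (18%, near 17.5%). In 21 the pairs overlapped (all kept genes: 3791 of 11427), and the median was -0.01 log2 against vector and 0.25 against parental. CDK1 had 235 and 227 CPM with LMO1, 218 and 213 CPM with vector and 175 CPM in parental.

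Of 42 kept neuronal cytoskeleton and synaptic genes, 22 rose (52.4%, against 19.0% of all kept genes) and 6 fell (14.3%, against 17.5%). With the vector pair apart LMO1 was higher in 22 (52.4%, against 15.8% of all kept genes), and the LMO1 pair was apart and higher in 9 (21.4%, against 18.0%). Parental was above all 4 modified libraries in 23 members and below all 4 in 12 (all kept genes: 4439 and 4300 of 11427). Medians were 0.22 log2 against vector and -0.15 against parental. NEFL, a neurofilament subunit, had 773 and 772 CPM in the LMO1 libraries against 519 and 529 CPM in the vector libraries and 579 CPM in parental. STMN2, a growth cone protein, had 525 and 517 CPM with LMO1, 384 and 372 CPM with vector, and 403 CPM in the parental library. For both the LMO1 pair exceeded all controls. KIF5C, an axonal kinesin, had 158 and 142 CPM with LMO1, 65.6 and 64.3 CPM with vector and 154 CPM in parental, where parental matched LMO1. NEFM, another neurofilament subunit, had 192 and 192 CPM in the LMO1 libraries against 129.8 and 146 CPM in the vector libraries and 444 CPM in parental, where parental exceeded all 4.

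**Figure D3:**
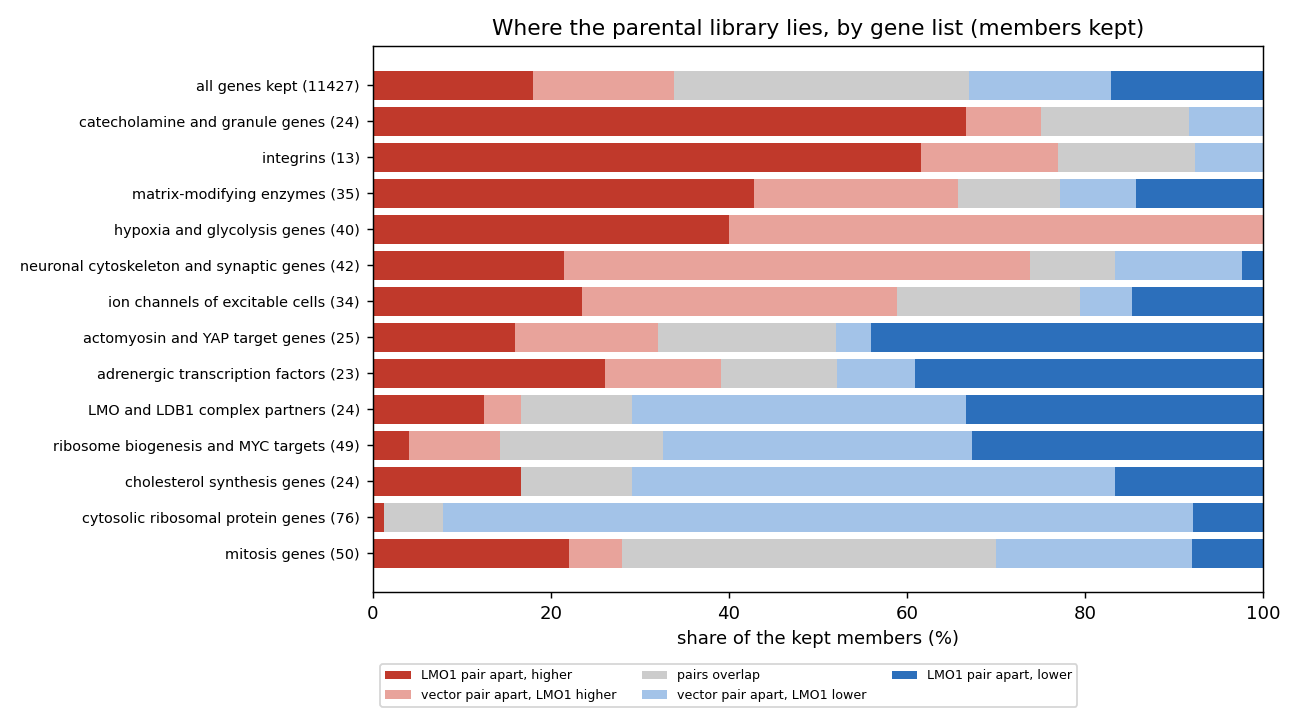
Share of the kept members of each gene list in the 3 placements, split by whether LMO1 was higher or lower than vector; the number kept is in brackets and all kept genes are the top bar. Dark red and dark blue are genes with the LMO1 pair beyond all 3 controls. The catecholamine and granule bar is dark red for 16 of 24 genes, while 64 of 76 ribosomal protein genes are light blue.

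**Figure D4:**
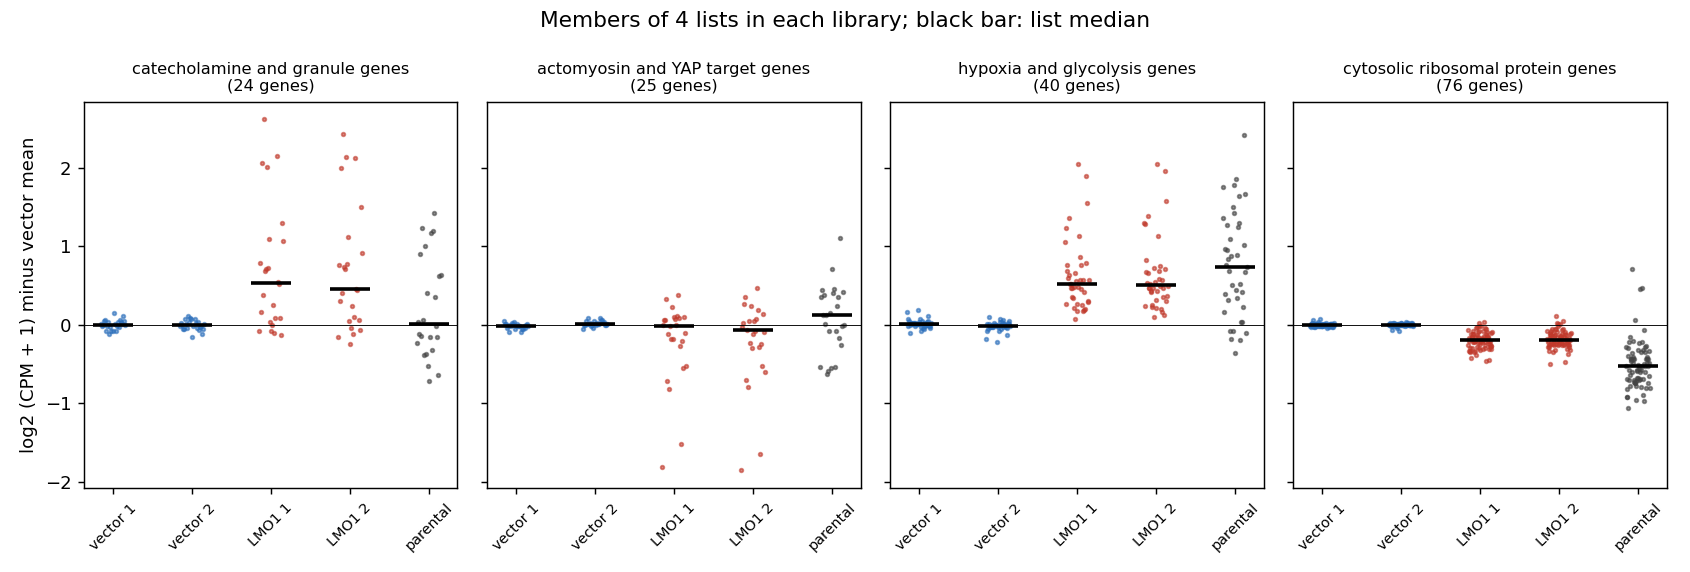
log2 (CPM + 1) minus the vector mean for each member (points) of 4 lists in each library, with black bars at the list median. The catecholamine medians are 0.53 and 0.45 in the LMO1 libraries and 0.01 in parental, the hypoxia medians 0.52, 0.5 and 0.74, and the ribosomal protein medians -0.2, -0.19 and -0.52. Actomyosin medians are -0.02 and -0.07 with LMO1 and 0.12 in parental, with ACTA2 and TAGLN as the lowest points of the LMO1 libraries.

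Where the vector pair stood apart, parental lay level with or past the nearer LMO1 library by definition. The genes below are from the largest differences from vector in this placement. FAM129A, a stress-response gene, had 81.9 and 82.9 CPM with LMO1, 7.39 and 8.02 CPM with vector, and 85.9 CPM in the parental library. CAMK2B, a calcium-dependent kinase subunit, had 13.9 and 13 CPM with LMO1, 2.4 and 2.73 CPM with vector and 17.8 CPM in parental. SHANK1, a postsynaptic scaffold, had 6.41 and 7.11 CPM in the LMO1 libraries against 1.15 and 0.672 CPM in the vector libraries and 59.3 CPM in parental, with parental several times above the LMO1 pair. NSUN5, an RNA methyltransferase gene with near-identical pseudogene copies that make its counts uncertain, had 7.36 and 11.6 CPM with LMO1, 1.39 and 1.22 CPM with vector, and 7.84 CPM in the parental library. In the opposite direction, NELL2, a secreted neuronal protein, had 25.5 and 26.2 CPM with LMO1, 143 and 143 CPM with vector and 22.7 CPM in parental, so that the vector pair was high and the other 3 libraries level. NELL1, its paralogue, had 11.8 and 13.4 CPM in the LMO1 libraries against 32.2 and 34.3 CPM in the vector libraries and 7.73 CPM in parental. FLT1, a receptor for vascular endothelial growth factor, had 5.07 and 5.38 CPM with LMO1, 11.1 and 12.4 CPM with vector, and 4.86 CPM in the parental library. As this placement requires, in each of these 7 genes the vector pair, not the LMO1 pair, was the outer group, or lay opposite parental with LMO1 between. Against the 3 controls their edgeR adjusted p ran from 0.585 for NELL2 to 0.804 for SHANK1.

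Against parental alone, with no test since it is 1 library, the LMO1 mean was at least 2-fold higher in 225 kept genes and at least 2-fold lower in 678.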

How the data were processed

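Total RNA was sequenced from human BE2C cells with stranded paired-end libraries, per the labels. The authors deposited 1 table of raw counts per gene symbol, made with TopHat2 2.0.6, HTSeq and hg19, per the submitters' processing notes; the annotation and the strand setting of the counting are not given in the sources used here. Library totals were 18737591 to 48663459 counts, so a single count was worth well under 0.1 CPM. In the table, 28 symbols had been turned into dates by a spreadsheet and none is named.

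Counts were fitted in R 4.3.3 with edgeR 4.0.16 (quasi-likelihood F test, TMM, Benjamini-Hochberg over 11427 genes, called at adjusted p below 0.05), once for 2 LMO1 against 3 control libraries and once for LMO1 against vector. limma 3.58.1, DESeq2 1.42.0, other scalings and filters, a replicate block and leaving out each library were the alternatives. Scripts were tested on simulated data. log2 differences of list medians used CPM + 1. Same-numbered LMO1 and vector libraries did not deviate together from their group means (correlation -0.00678). Within the pairs, a chi-square of the counts per degree of freedom was 2.71 (LMO1) and 2.39 (vector), so each pair differed by more than counting error. This cannot tell cells grown apart from repeated preparations of the same cells. The SE beside a log2 difference is the coefficient divided by the square root of the F value.

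Members and lists were chosen with earlier results of these data known. The rule for naming genes asked for genes called against 3 controls. As there were none, a rule added after seeing this named, among genes called against vector with the LMO1 pair apart, the 12 highest and 12 lowest by the smaller of the log2 differences to vector and parental, and up to 4 members of each list by the lowest p against 3 controls. The 8 highest and 8 lowest genes with the vector pair apart, and up to 2 per list, followed the original rule. Other genes named were chosen after their values were seen. Some genes that these rules pick are not reported here.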

Additional observations from a re-analysis of the deposited data

How the results depend on the processing

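The call counts rest on the parental library. Against 3 controls, edgeR called 0 genes higher and 0 lower, and also 0 with limma-voom, DESeq2 size factors in edgeR, total count scaling, filterByExpr, no filter, or HIST and small RNA genes kept. DESeq2 called 234 higher and 98 lower. Leaving out 1 library at a time gave 0 to 2171 higher and 0 to 1999 lower, the upper values being those without parental. With 3 groups in 1 fit, where the lone parental library is assumed to vary like the others, LMO1 minus vector gave 2195 higher and 1984 lower, and LMO1 minus the mean of vector and parental gave 3040 and 3248. A replicate block on the 4 modified libraries, whose numbers share no more than a label (pair correlation -0.00678), gave 2170 higher and 1986 lower; of the 4170 calls without it, 4126 were shared. Against vector, DESeq2 called 1231 genes lower instead of 1999, and 2684 calls in either direction were shared.

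Asking for a gap of at least 0.2 log2 left 614 genes with the LMO1 pair apart and higher and 328 lower, and 513 and 315 with the vector pair apart. Under this gap the ribosomal protein genes with the vector pair apart and LMO1 lower went from 64 to 22. With the LMO1 pair apart, the hypoxia genes went from 16 to 7 and the matrix-modifying enzymes from 15 to 9, both higher. Ribosome assembly genes and MYC targets went from 16 to 5 and actomyosin genes from 11 to 6, both lower. Neuronal genes with the vector pair apart and LMO1 higher went from 22 to 13. Smaller changes were seen for the catecholamine genes (16 to 13) and integrins (8 to 6), both with the LMO1 pair apart and higher. With HIST and small RNA genes kept, 349 genes instead of 225 were at least 2-fold above parental. MYCN against vector, -0.03 log2, ran from -0.07 to 0.01 when 1 library was left out, with the sign changed without LMO1 replicate 2. EGR1 against vector, 0.04 log2, ran from -0.09 to 0.17, with the sign changed without vector replicate 2. No other gene named in the text and kept by the filter changed direction under the alternatives run for it. Genes without the LMO1 pair apart were followed only in comparisons with vector. Some of them had the opposite sign against 3 controls, such as SHANK1 with 2.91 log2 against vector and -1.61 against 3 controls. For named genes with the LMO1 pair apart, none passed in the main run against 3 controls. Over genes and alternatives, 542 values passed the threshold and 1243 did not. These alternatives include runs that set LMO1 against vector only: LMO1 minus vector with 3 groups in 1 fit, the replicate block, and the run without parental. The 542 are therefore not calls against 3 controls. For the other named genes, against vector, 834 values stayed on their side, 3 came past it and 6 were lost. The causes of these shifts were not tested. Low counts limit the genes near the 5 CPM filter.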

Other observations

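Of 25 kept genes of interferon response and antigen presentation, 11 rose (44%, against 19.0% of all kept genes) and 1 fell (4%, against 17.5%). The LMO1 pair was apart and higher in 7 (28%, against 18.0%) and apart and lower in 3 (12%, against 17.1%), and the medians were 0.13 log2 against vector and -0.07 against parental. Among the 7, TAP1 passed the filter through the LMO1 columns alone. HLA-C, a class I heavy chain whose reads can be shared with its close paralogues, had 95.1 and 104 CPM with LMO1, 50.4 and 48.2 CPM with vector and 56.5 CPM in parental, and B2M, the light chain, had 700.1 and 735 CPM in the LMO1 libraries against 534 and 522 CPM in the vector libraries and 577 CPM in parental. PARP14, an interferon-induced ADP-ribosyltransferase, had 17.2 and 18.8 CPM with LMO1, 3.65 and 6.18 CPM with vector, and 8.29 CPM in the parental library. IFI16, a DNA sensor, had 104 and 105 CPM with LMO1, 52.8 and 57.2 CPM with vector and 129 CPM in parental, with parental above both pairs. Of 37 listed cancer-testis genes only 3 were kept, too few to describe the list. Of these 3, 2 rose (66.7%, against 19.0%). MAGEC2 had 35.8 and 35.6 CPM in the LMO1 libraries against 2.74 and 3.49 CPM in the vector libraries and 13 CPM in parental. PRAME had 11.3 and 10.1 CPM with LMO1, 5.14 and 5.97 CPM with vector, and 6.87 CPM in the parental library. Both had the LMO1 pair above every control.

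Of 34 kept ion channels of excitable cells, 16 rose (47.1%, against 19.0% of all kept genes) and 2 fell (5.88%, against 17.5%). In 8 the LMO1 pair was apart and higher (23.5%, against 18.0%) and the vector pair apart with LMO1 higher in 12 (35.3%, against 15.8%), and the medians were 0.18 log2 against vector and -0.2 against parental. Among the 8, KCNJ2 passed the filter through the LMO1 columns alone. KCNMA1, the large-conductance potassium channel, had 36.5 and 36.4 CPM with LMO1, 15.2 and 14.5 CPM with vector and 37.8 CPM in parental, with parental level with LMO1. Among 32 kept WNT genes 10 rose (31.2%, against 19.0%) and 4 fell (12.5%, against 17.5%). Of the 32, 31.2% had the LMO1 pair apart, below the 35.1% of all kept genes. It was apart and higher in 6 (18.8%, near 18.0%) and apart and lower in 4 (12.5%, against 17.1%). The secreted inhibitor gene DKK1 had 115 and 121 CPM in the LMO1 libraries against 53.2 and 56.7 CPM in the vector libraries and 28.7 CPM in parental, and the receptor gene LGR5 had 221 and 222 CPM with LMO1, 118 and 132 CPM with vector, and 333 CPM in the parental library. Of 46 axon guidance genes 14 rose (30.4%, against 19.0%) and 11 fell (23.9%, against 17.5%). The LMO1 pair was apart and higher in 8 (17.4%, near 18.0%) and apart and lower in 9 (19.6%, against 17.1%). Among those apart, EPHA2, SEMA4F and EPHB3 passed the filter through the LMO1 columns alone. PLXNA4, a semaphorin co-receptor, had 60.3 and 58.1 CPM with LMO1, 103 and 102 CPM with vector and 179.9 CPM in parental, below all controls. Of 31 BMP and TGF-beta genes 4 rose (12.9%, against 19.0%) and 8 fell (25.8%, against 17.5%). The LMO1 pair was apart and higher in 4 (12.9%, against 18.0%) and apart and lower in 8 (25.8%, against 17.1%). Among the 8 apart and lower, BMPER passed the filter through the vector columns alone.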
